A study of Mus musculus with 6 samples.

Results

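The genes described here are 50 factors of ribosome biogenesis, the nuclear and cytoplasmic pathway that makes the ribosome's 2 subunits. They were chosen by symbol as polymerase, nucleolar, snoRNP and assembly factors, by a rule that uses no measured value, though earlier results of these data were known. All 50 were found among the 46316 gene symbols of the deposited count table, and all 50 were among the 13864 genes with enough counts to be tested. RNA was measured in WT mouse B cells, which the study isolated as naive cells from spleen. The condition IL-4+Bryostatin1 was 5 ng/mL IL-4 with 0.8 nM bryostatin 1, an activator of protein kinase C, in 3 samples. The control, IL-4, was 5 ng/mL IL-4 alone in 3 samples. Cells of both conditions also received 500 ng/mL of an antibody to CD40, a stand-in for T cell help, and were harvested after 2 days. Neither condition is therefore a resting B cell. The sources used here do not give the sex or number of the mice behind each sample.

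Ribosome biogenesis starts in the nucleolus, where RNA polymerase I transcribes a long precursor of the ribosomal RNAs. Small nucleolar ribonucleoproteins (snoRNPs) modify that precursor, box C/D particles by methylation and box H/ACA particles by pseudouridylation, and assembly factors fold, cut and export the pre-subunits. B cells enlarge their nucleoli when they are activated and begin to divide, and the transcription factor MYC is known as an activator of many of these genes.

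Libraries held between 19959958 and 24896411 counts, with 1 transcript row per gene, and a common biological coefficient of variation of 3.89%. No library stood apart in the totals, and samples of 1 group differed by more than sampling noise. Whether the 3 samples of each condition are separate mice or cultures is not stated, and the p-values then reflect only the scatter among these samples, possibly technical. Levels are in CPM, a count set against the scaled size of its library, and changes as log2 fold changes of IL-4+Bryostatin1 over IL-4. A gene was called at an adjusted p under 0.05 in edgeR's quasi-likelihood test with Benjamini-Hochberg adjustment over all genes tested. The B cell label was checked against Cd79a, Cd79b, Ms4a1, Cd22 and Pax5, whose summed level was 3697 to 3942 CPM in IL-4+Bryostatin1 samples and 4722 to 4951 CPM in IL-4 samples. Of these 5 markers 4 were lower and Cd79b was not called.

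Most of the biogenesis factors were higher in B cells given bryostatin 1, each by a modest amount. Of the 50 genes, 39 were higher, 2 were lower and 9 were not called. Among all genes tested, 30.1% were higher and 28.0% lower, 58.1% in all, so that a call alone is common in these data. The median log2 fold change of the 50 genes was 0.23, against 0.00 for all genes tested. It ranged from -0.42 for Ubtf, which activates RNA polymerase I, to 0.45 for Polr1c, a subunit shared by RNA polymerases I and III. These genes are well counted, with 1017 to 67380 counts in a library, and calls are more frequent among such genes. Among the 3963 genes with a mean level at least that of the lowest of the 50 (57.5 CPM), 38.6% were higher and 32.1% lower, 70.7% in all, and the median log2 fold change was 0.02. That comparison was chosen after the data were seen. With DESeq2, 38 of the 50 genes were higher and 2 lower, against 25.6% and 25.0% of all genes given an adjusted p.

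Changes were small in size throughout the group. None of the 50 genes was called with a log2 fold change of 0.5 or more in either direction, by edgeR or by DESeq2, and none reached that size at an unadjusted p under 0.05 in edgeR. In edgeR, 23.7% of all genes tested were called with a change of that size, and 14.4% of the 3963 genes of like level. The 3 IL-4+Bryostatin1 samples lay above the 3 IL-4 samples for 41 of the 50 genes (33.0% of all genes tested) and below them for 2 (30.5%), and the groups overlapped for 7. The median coefficient of variation within a group was 2.95% in IL-4+Bryostatin1 samples and 3.06% in IL-4 samples. The plot of changes by role shows 44 of the 50 genes to the right of 0 and 6 to the left, of which Ubtf and Tcof1 were called and Ppan, Fbl, Gnl3 and Rrs1 were not.

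**Figure D1:**
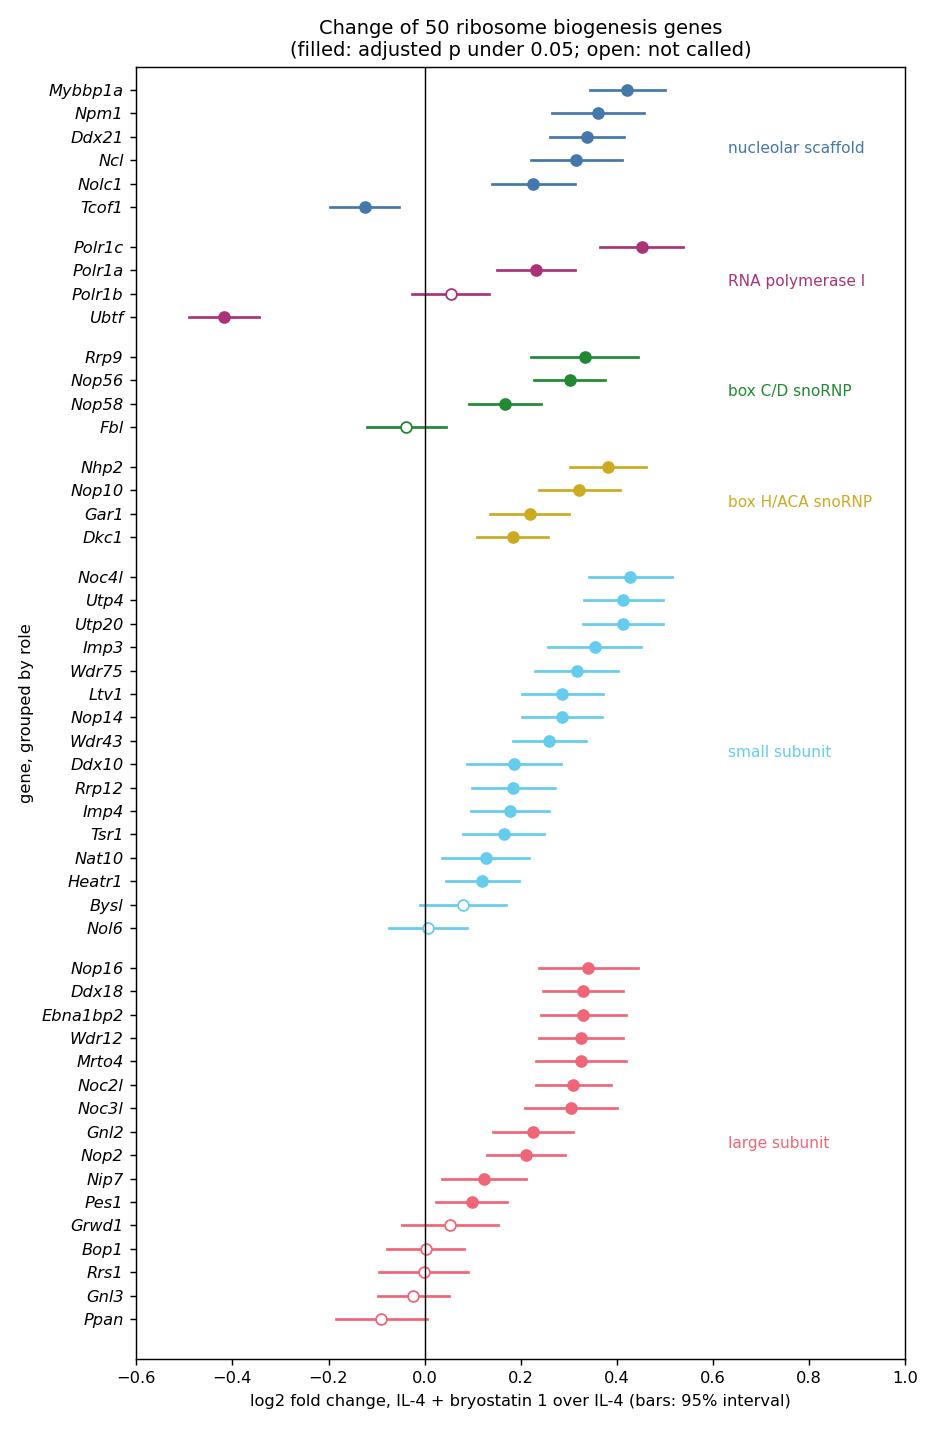
Log2 fold change of IL-4+Bryostatin1 over IL-4 for each of the 50 genes (x axis), with 95% intervals, by role. Filled points were called at an adjusted p under 0.05 and open points were not. Values lie between -0.42 (Ubtf) and 0.45 (Polr1c), with 39 genes called higher and 2 lower.

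Summed over the 50 genes, the level was 12723, 13213 and 13253 CPM in IL-4+Bryostatin1 samples, against 10682, 10973 and 11292 CPM in IL-4 samples. The groups did not overlap, and the ratio of the means was 1.19. Ncl and Npm1 made up a large part of both sums. Without them the sum averaged 8038 ± 161 CPM in IL-4+Bryostatin1 samples and 6998 ± 98.8 CPM in IL-4 samples (SD, n = 3 each), a ratio of 1.15. The gene-wise median of the log2 deviation from the IL-4 mean was 0.20, 0.27 and 0.26 in the 3 IL-4+Bryostatin1 samples, against -0.02, 0.00 and 0.03 in the 3 IL-4 samples. IL-4+Bryostatin1 replicate 1 was thus the lowest of its group, and each of the 3 stood above every IL-4 sample, as the map of levels by sample shows.

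In bulk RNA, a change in the mix of cells and a change of RNA per cell cannot be told apart. Markers of other cell types were low in every library beside the sums above. Of 6 T cell markers only Trac had enough counts to be tested, and it was higher. The T cell sum was 1.81 to 2.68 CPM in IL-4+Bryostatin1 samples and 0.73 to 1.09 CPM in IL-4 samples. None of 5 NK cell markers had enough counts to be tested, with sums of 0.65 to 1.42 CPM in IL-4+Bryostatin1 samples and 0.28 to 0.50 CPM in IL-4 samples. Of 7 myeloid markers 3 were tested and Adgre1, which encodes F4/80, was higher, with sums of 22.1 to 25.3 CPM in IL-4+Bryostatin1 samples and 5.07 to 8.19 CPM in IL-4 samples. Without Adgre1 the other 6 summed to 3.05 to 4.03 CPM in IL-4+Bryostatin1 samples and 2.29 to 4.28 CPM in IL-4 samples. S100a8 and S100a9 were at 0 in all IL-4+Bryostatin1 libraries, and Cd14 was at 0 in all IL-4 libraries. Of 5 erythroid markers only Hbb-bt was tested and it was higher, with sums of 24.0 to 30.8 CPM in IL-4+Bryostatin1 samples and 0.64 to 1.42 CPM in IL-4 samples, and Alas2 was at 0 in all 6 libraries. The part of these cells in the changes of the 50 genes was not tested.

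**Figure D2:**
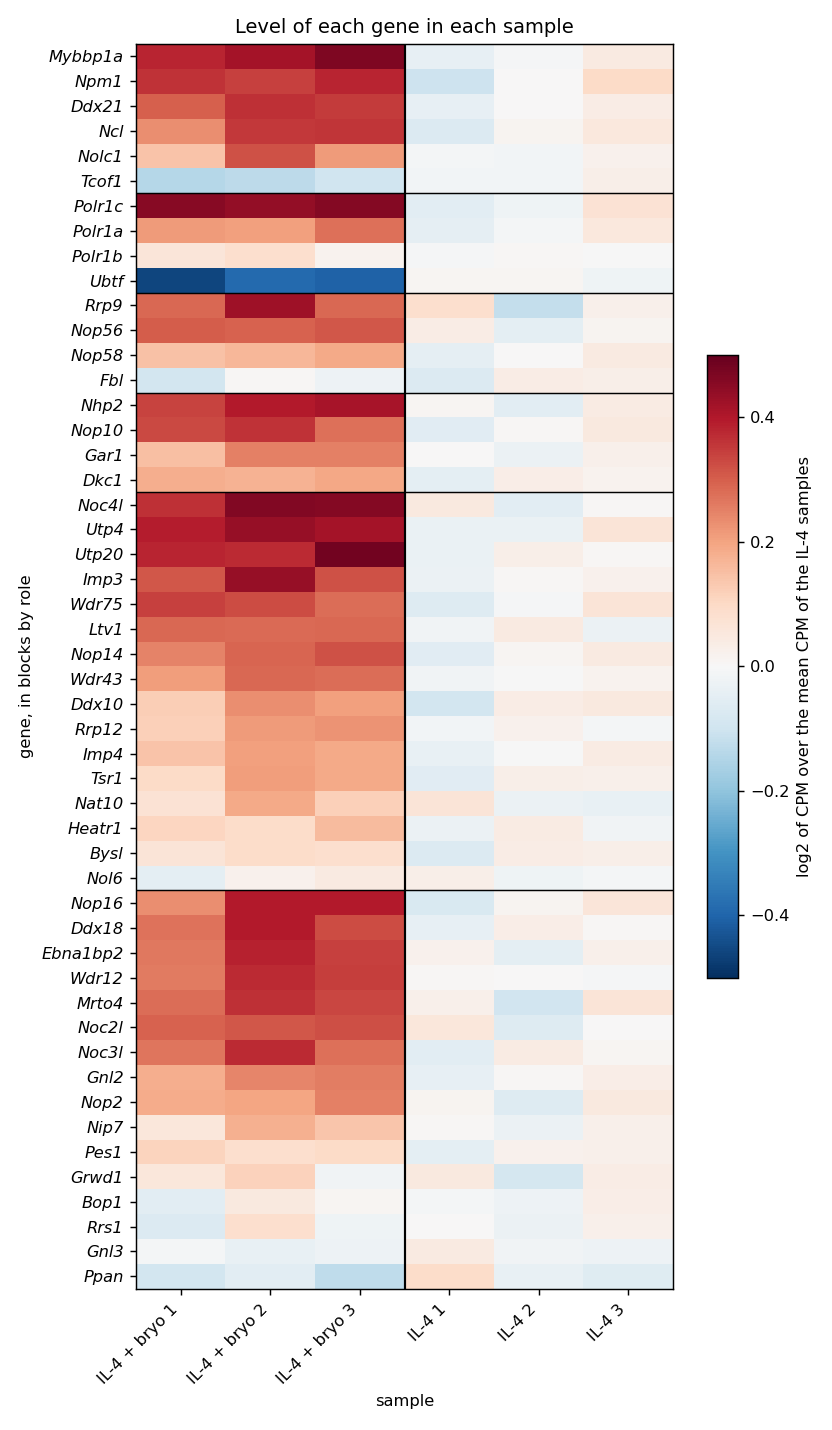
Level of each of the 50 genes (rows, in blocks by role) in each sample (columns, IL-4+Bryostatin1 left and IL-4 right), as the log2 of CPM over the mean CPM of the IL-4 samples, with colour running from -0.5 to 0.5. Rows are mostly red on the left, with Ubtf (-0.42) and Tcof1 (-0.13) blue.

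Promoter sequence was available for 42 of the 50 genes in RefSeq windows around the annotated start on mouse build GRCm38.p6. Each window searched ran from 250 bases before to 50 bases after the start. No window was matched for Npm1, Gnl2, Tcof1, Nol6, Rrp12, Rrs1, Fbl and Bop1. The windows were searched on both strands for CACGTG, the E-box that MYC with its partner MAX is known to bind and which reads the same on both strands. They were also searched for CCGGAAG and its reverse complement CTTCCGG, a core of sites of ETS factors, and for the palindromic consensus of NRF1, 10 bases long. The E-box was in the windows of 10 of 42 genes (23.8%). Its share was 11.9% of the 9878 tested genes with a window and 8.09% of all 27025 genes with a window. The ETS letters were in 16 of 42 (38.1%), against 21.0% of those tested genes and 9.93% of all genes with a window. The NRF1 consensus was in 0 of 42, against 2.43% and 1.07%. The median GC content was 59.3% for the windows of the 42 genes, 60.3% for those of the tested genes and 52.7% for all windows. These shares are descriptions, with no test, and a match is not a bound site.

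The promoters of 6 genes are shown as examples of each arrangement of the matches (both motifs, 1 of them or neither), and 3 of these genes, Polr1c, Noc4l and Utp4, are among the 5 largest rises. Each runs 5′ to 3′ on the strand of the gene from 100 bases before to 30 bases after the start, with E-box and ETS matches in capitals and the rest in lower case.
Polr1c, chr17:46248016-46248145, minus strand, an ETS match only: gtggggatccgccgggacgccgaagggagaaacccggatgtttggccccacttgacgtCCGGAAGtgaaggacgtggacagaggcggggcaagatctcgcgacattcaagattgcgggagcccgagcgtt
Utp4, chr8:106893540-106893669, plus strand, both: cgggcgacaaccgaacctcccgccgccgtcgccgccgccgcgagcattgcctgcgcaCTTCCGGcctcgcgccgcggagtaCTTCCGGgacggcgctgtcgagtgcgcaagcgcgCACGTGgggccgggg
Tsr1, chr11:74897980-74898109, plus strand, both: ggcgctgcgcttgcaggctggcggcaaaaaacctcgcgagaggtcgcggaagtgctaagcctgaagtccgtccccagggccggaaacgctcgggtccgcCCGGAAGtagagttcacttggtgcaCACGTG
Nop2, chr6:125131783-125131912, plus strand, both: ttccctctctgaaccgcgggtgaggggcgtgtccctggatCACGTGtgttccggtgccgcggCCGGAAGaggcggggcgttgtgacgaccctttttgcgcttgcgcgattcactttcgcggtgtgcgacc
Wdr43, chr17:71616115-71616244, plus strand, an E-box only: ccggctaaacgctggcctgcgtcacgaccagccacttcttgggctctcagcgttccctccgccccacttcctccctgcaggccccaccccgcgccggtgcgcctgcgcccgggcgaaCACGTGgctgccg
Noc4l, chr5:110653353-110653482, minus strand, no match: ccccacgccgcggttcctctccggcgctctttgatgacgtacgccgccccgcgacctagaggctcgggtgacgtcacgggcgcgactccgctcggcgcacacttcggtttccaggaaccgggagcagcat

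Across the 42 genes, E-boxes lay mostly after the start (8 of 10, from -121 to 41). ETS letters lay mostly before it (16 of 21 matches, from -187 to 26). Matches were counted over 50 windows, since some genes have several. Those of Noc2l at 4 and -2 lie in different windows and can be the same site. Genes with an E-box were called higher in 9 of 10 cases with a median log2 fold change of 0.24, and those without one in 27 of 32 with a median of 0.30. Genes with ETS letters were called higher in 14 of 16 cases (median 0.22), and those without in 22 of 26 (median 0.31). Of 21 genes with neither, 17 were called higher, with a median of 0.32. Of the 5 largest rises among the 42 genes, Polr1c and Noc4l lack an E-box in these windows, and Mybbp1a, Utp4 and Utp20 hold one.

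The nucleolar scaffold and chaperone proteins were 5 of 6 higher and 1 of 6 lower, with a median log2 fold change of 0.33. Mybbp1a, a MYB-binding protein of the nucleolus that acts in ribosomal RNA synthesis and processing, had 659, 675 and 699 CPM in IL-4+Bryostatin1 samples, against 492, 504 and 522 CPM in IL-4 samples. The groups were well apart, at a log2 fold change of 0.42 (SE 0.04, edgeR adjusted p = 2.2e-08). Npm1 encodes nucleophosmin, the scaffold of the outer nucleolus. It had 2212, 2181 and 2241 CPM in IL-4+Bryostatin1 samples, against 1603, 1724 and 1839 CPM in IL-4 samples, and the IL-4 samples spread the more widely. Its log2 fold change was 0.36 (SE 0.05, edgeR adjusted p = 2.2e-06), and its value is uncertain to the extent that reads are shared with its processed pseudogenes.

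Ddx21, an RNA helicase of polymerase I transcription and pre-ribosomal RNA processing, had 574, 602 and 595 CPM in IL-4+Bryostatin1 samples, against 454, 467 and 479 CPM in IL-4 samples. Its change was close to that of Npm1, at 0.34 (SE 0.04, edgeR adjusted p = 2.9e-07). Ncl, nucleolin, is an abundant RNA-binding protein of the nucleolus. Its level was 2660, 2887 and 2896 CPM in IL-4+Bryostatin1 samples, against 2157, 2285 and 2343 CPM in IL-4 samples, the most counts of the 50 genes, though counts also grow with transcript length. The log2 fold change of Ncl was 0.32 (SE 0.04, edgeR adjusted p = 9.0e-06). Nolc1, a chaperone of snoRNPs, followed at 0.23. Tcof1 went the other way. This gene encodes treacle, a nucleolar partner of polymerase I and UBF, and had 301, 304 and 310 CPM in IL-4+Bryostatin1 samples, against 329, 329 and 339 CPM in IL-4 samples. The groups did not overlap, at a log2 fold change of -0.13 (SE 0.03, edgeR adjusted p = 0.0041).

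The 4 genes of the RNA polymerase I machinery did not move together, with 2 higher, 1 lower and 1 not called. Ubtf, the HMG-box factor UBF that keeps ribosomal DNA open for the polymerase, had 208, 218 and 216 CPM in IL-4+Bryostatin1 samples, against 288, 288 and 282 CPM in IL-4 samples. This was the largest fall of the 50 genes, to 0.749 of the IL-4 level, with a log2 fold change of -0.42 (SE 0.03, edgeR adjusted p = 9.2e-09). Ubtf has 17 transcript rows in the table. The row with the lowest counts, at 22.4% of the highest, had a log2 ratio of -0.28, so the direction was shared at a smaller size. Polr1c, whose promoter with 1 ETS match is printed above, had 97.1, 96.2 and 97.5 CPM in IL-4+Bryostatin1 samples, against 68.4, 69.8 and 74.4 CPM in IL-4 samples. It rose 1.37-fold, a log2 fold change of 0.45 (SE 0.04, edgeR adjusted p = 3.3e-08).

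Polr1a encodes the largest, catalytic subunit. It had 131, 130 and 136 CPM in IL-4+Bryostatin1 samples, against 109, 112 and 117 CPM in IL-4 samples, and rose by a log2 fold change of 0.23 (SE 0.04, edgeR adjusted p = 5.4e-05). Polr1b, the second largest subunit, had 84.4, 86.0 and 82.0 CPM in IL-4+Bryostatin1 samples, against 80.8, 81.3 and 81.0 CPM in IL-4 samples. The groups of Polr1b do not overlap but the difference was not called, at 0.05 with a 95% interval from -0.03 to 0.13. Summed over the 4 genes, Ubtf included, the level was 528 ± 6.56 CPM in IL-4+Bryostatin1 samples and 551 ± 3.93 CPM in IL-4 samples (SD, n = 3 each). Of 11 further tested genes of polymerase I and its initiation factors, 4 were higher and 2 lower, with a median of 0.04. One of these, Znrd1, a small subunit of the enzyme, had 28.6, 27.8 and 27.9 CPM in IL-4+Bryostatin1 samples, against 39.3, 36.4 and 35.9 CPM in IL-4 samples (log2 fold change -0.41, edgeR adjusted p = 6.2e-06).

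**Figure D3:**
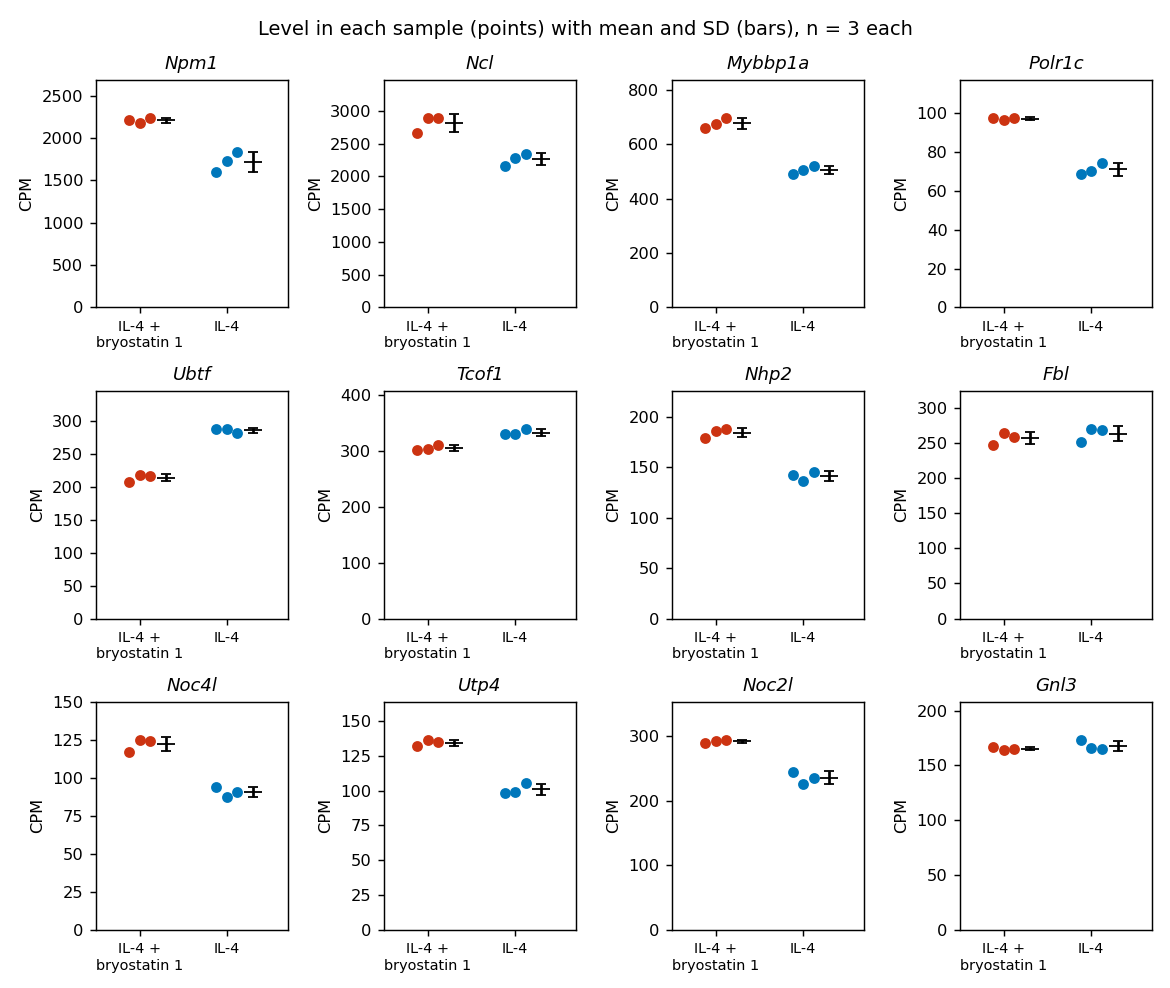
CPM of 12 of the genes in each sample (points, y axis from 0), IL-4+Bryostatin1 left and IL-4 right, with mean and SD beside them (n = 3 each). The groups are apart for all but Fbl and Gnl3, and are lower with bryostatin 1 for Ubtf and Tcof1.

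Both families of snoRNP proteins were mostly higher. Of the 4 proteins of box C/D particles, which guide methylation of ribosomal RNA, 3 were higher and Fbl was not called. Rrp9, a protein specific to the U3 particle, had 73.3, 80.4 and 73.2 CPM in IL-4+Bryostatin1 samples, against 63.7, 55.2 and 61.1 CPM in IL-4 samples. It varied more than most of the 50 genes and rose by a log2 fold change of 0.33 (SE 0.05, edgeR adjusted p = 3.1e-05). Nop56, a scaffold of the particle, had 382, 381 and 385 CPM in IL-4+Bryostatin1 samples, against 318, 300 and 313 CPM in IL-4 samples (0.30, edgeR adjusted p = 7.9e-07). Nop58, its partner in the scaffold, had 306, 310 and 315 CPM in IL-4+Bryostatin1 samples, against 268, 277 and 285 CPM in IL-4 samples, a log2 fold change of 0.17. Fbl encodes fibrillarin, the methyltransferase of the particle. Its groups overlapped, with 247, 264 and 259 CPM in IL-4+Bryostatin1 samples and 251, 270 and 269 CPM in IL-4 samples, and the 95% interval of its log2 fold change ran from -0.12 to 0.04.

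All 4 proteins of box H/ACA particles were higher. They form the core of the pseudouridylation machinery and are also known as components of telomerase. Nhp2 had 179, 186 and 188 CPM in IL-4+Bryostatin1 samples, against 142, 137 and 146 CPM in IL-4 samples, at a log2 fold change of 0.38 (SE 0.04, edgeR adjusted p = 9.1e-08). Nop10, the smallest core protein, had 116, 118 and 111 CPM in IL-4+Bryostatin1 samples, against 88.6, 92.6 and 95.3 CPM in IL-4 samples (0.32, edgeR adjusted p = 2.0e-06). Gar1 had 114, 123 and 123 CPM in IL-4+Bryostatin1 samples, against 103, 101 and 105 CPM in IL-4 samples, at 0.22. Nhp2, Nop10 and Gar1 are partners of Dkc1, dyskerin, the enzyme that makes pseudouridine. Dkc1 had 277, 276 and 280 CPM in IL-4+Bryostatin1 samples, against 236, 250 and 248 CPM in IL-4 samples, and had the smallest rise of the 4 at 0.18 (SE 0.03, edgeR adjusted p = 2.0e-04).

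Of the 16 small subunit factors, 14 were higher and none lower, with a median log2 fold change of 0.22. Noc4l, a partner of Nop14 in small subunit assembly, had 117, 125 and 125 CPM in IL-4+Bryostatin1 samples, against 93.7, 87.4 and 91.0 CPM in IL-4 samples. It rose by a log2 fold change of 0.43 (SE 0.04, edgeR adjusted p = 6.9e-08), and its promoter printed above holds none of the letters searched. Utp4, of the subcomplex that joins the nascent transcript first, had 132, 136 and 135 CPM in IL-4+Bryostatin1 samples, against 98.4, 98.7 and 105 CPM in IL-4 samples (0.41, edgeR adjusted p = 4.8e-08). Utp20, a large scaffold of the small subunit processome, had 136, 136 and 146 CPM in IL-4+Bryostatin1 samples, against 102, 107 and 105 CPM in IL-4 samples (0.41, edgeR adjusted p = 7.2e-08). Heatr1 belongs with Utp4 to the early subcomplex and took the most counts of the 16. Its rise was smaller, with 209, 206 and 216 CPM in IL-4+Bryostatin1 samples, against 190, 200 and 192 CPM in IL-4 samples, a log2 fold change of 0.12 (edgeR adjusted p = 0.0084).

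The other called genes of this role ran from 0.13 for Nat10, the RNA cytidine acetyltransferase, to 0.35 for Imp3, a U3-associated protein. In between lay Wdr75 and Wdr43 of the early subcomplex at 0.32 and 0.26, Ltv1 at 0.29, Nop14 at 0.29, the helicase Ddx10 at 0.19, Rrp12 at 0.18, Imp4 at 0.18 and Tsr1 at 0.16. For Ddx10 the second transcript row, with 41.0% of the counts of the first, had a log2 ratio of 0.29. Nat10 lost its call in 3 of 15 alternatives. Nol6 and Bysl were not called. Nol6, the mouse counterpart of yeast Utp22, had 112, 117 and 119 CPM in IL-4+Bryostatin1 samples and 118, 114 and 115 CPM in IL-4 samples, so the groups overlapped. Bysl, a factor of late small subunit maturation, had 65.9, 67.1 and 66.7 CPM in IL-4+Bryostatin1 samples, against 60.1, 64.7 and 64.2 CPM in IL-4 samples. Its groups were apart, and the log2 fold change of 0.08 had a 95% interval from -0.01 to 0.17.

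Of the 16 large subunit factors, 11 were higher, none lower and 5 not called, with a median log2 fold change of 0.22. Nop16 had 97.6, 109 and 109 CPM in IL-4+Bryostatin1 samples, against 78.8, 83.9 and 86.6 CPM in IL-4 samples (log2 fold change 0.34, SE 0.05, edgeR adjusted p = 9.7e-06). Ddx18, an RNA helicase, had 166, 181 and 172 CPM in IL-4+Bryostatin1 samples, against 134, 141 and 138 CPM in IL-4 samples (0.33, edgeR adjusted p = 1.1e-06). Ebna1bp2, the mammalian Ebp2, had 94.8, 103 and 99.9 CPM in IL-4+Bryostatin1 samples, against 80.2, 76.3 and 80.3 CPM in IL-4 samples (0.33, edgeR adjusted p = 2.5e-06). Noc2l, known also as an inhibitor of histone acetyltransferases, took the most counts of this role, with 289, 293 and 295 CPM in IL-4+Bryostatin1 samples, against 246, 226 and 236 CPM in IL-4 samples (0.31, edgeR adjusted p = 1.1e-06). For all 4 genes every IL-4+Bryostatin1 sample exceeded every IL-4 sample.

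Wdr12, Pes1 and Bop1 form the PeBoW complex of large subunit processing. Wdr12 was at 0.33 (95% interval 0.24 to 0.41) and Pes1 at 0.10 (0.02 to 0.17). Bop1 had 120, 128 and 125 CPM in IL-4+Bryostatin1 samples and 123, 122 and 127 CPM in IL-4 samples, at 0.00 (-0.08 to 0.08). The intervals of Wdr12 and Bop1 do not overlap, but the difference between the genes was not tested. Pes1 lost its call in 5 of 15 alternatives.

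The remaining called large subunit genes were Mrto4 at 0.32, Noc3l, a partner of Noc2l, at 0.30, the GTPase Gnl2 at 0.23, the methyltransferase Nop2 at 0.21 and Nip7 at 0.12. Nip7 lost its call in 4 of 15 alternatives. The uncalled genes besides Bop1 were Rrs1, Gnl3, Grwd1 and Ppan. Rrs1, which helps bring the 5S particle into the large subunit, had 79.9, 88.8 and 82.5 CPM in IL-4+Bryostatin1 samples and 83.9, 82.1 and 85.3 CPM in IL-4 samples. Gnl3, the GTPase nucleostemin, had 167, 164 and 165 CPM in IL-4+Bryostatin1 samples and 173, 166 and 165 CPM in IL-4 samples, with a 95% interval of the log2 fold change from -0.10 to 0.05. Both sets of values overlapped between the groups. Grwd1, a chaperone of a ribosomal protein, was at 0.05, and Ppan was at -0.09 with an interval from -0.19 to 0.00.

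Of the 50 genes, 13 overlap another protein-coding gene in RefSeq, among them Mybbp1a with Spns2, Nhp2 with Rmnd5b, Nop56 with Idh3b, Noc2l with Klhl17 and Samd11, Ebna1bp2 with Cfap57, Bysl with Ccnd3 and Bop1 with Mroh1 and Scx. The library kit keeps strand, but no source used here gives the strand setting of the counting, which leaves these values uncertain. By annotation 21 snoRNAs lie within 8 of the genes. These were Ncl, Nop56, Nop58, Dkc1, Wdr43, Tsr1, Gnl3 and Ppan, of which 6 were higher and Gnl3 and Ppan were not called. Levels of the snoRNAs themselves were not analysed here.

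The wider pathway also had more genes higher than lower. Of 120 further biogenesis genes listed from knowledge of the pathway, 66 were higher (55%, against 30.1% of all genes tested). In the other direction, 8 were lower (6.67%, against 28.0%). The median log2 fold change of the 120 genes was 0.12, and the difference from the 50 genes was not tested. Gtpbp4, a GTPase of large subunit assembly, had 258, 271 and 264 CPM in IL-4+Bryostatin1 samples, against 145, 153 and 145 CPM in IL-4 samples. At 0.84 (SE 0.04, edgeR adjusted p = 1.3e-12) it was the largest change of the 170 genes of both lists. Lyar, a nucleolar protein, was at 0.45, Esf1, a small subunit processing factor, at 0.42 and Wdr18, of a large subunit maturation complex, at 0.36. Besides Znrd1, the largest falls were Ddx54, an RNA helicase, at -0.39, Urb1 at -0.35 and Efl1, a GTPase that acts on the finished large subunit, at -0.31. By role, 7 of 8 snoRNP assembly factors, 23 of 41 small subunit, 24 of 47 large subunit and 8 of 13 nuclease genes were higher. Lower were 2 of the small subunit and 4 of the large subunit genes. The 11 further polymerase I genes had 4 higher (36.4%, against 30.1% of all genes tested) and 2 lower (18.2%, against 28.0%).

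Genes of ribosomal proteins, the parts that these factors assemble, went in both directions. Of 87 tested genes of cytosolic ribosomal proteins, 10 were higher (11.5%, against 30.1% of all genes tested) and 21 lower (24.1%, against 28.0%), with a median of -0.04. The count of 10 was 16 with total count scaling, 6 without IL-4+Bryostatin1 replicate 2 and 5 without IL-4+Bryostatin1 replicate 3. Of 78 genes of mitochondrial ribosomal proteins, which the 50 factors do not assemble, 28 were higher and 9 lower, with a median of 0.05. The share of these genes called higher was 35.9%, against 30.1% of all genes tested, and the share called lower was 11.5%, against 28.0%. Many cytosolic ribosomal protein genes have processed pseudogenes that may share their reads. The lists differ in length and level, and the difference between them was not tested.

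**Figure D4:**
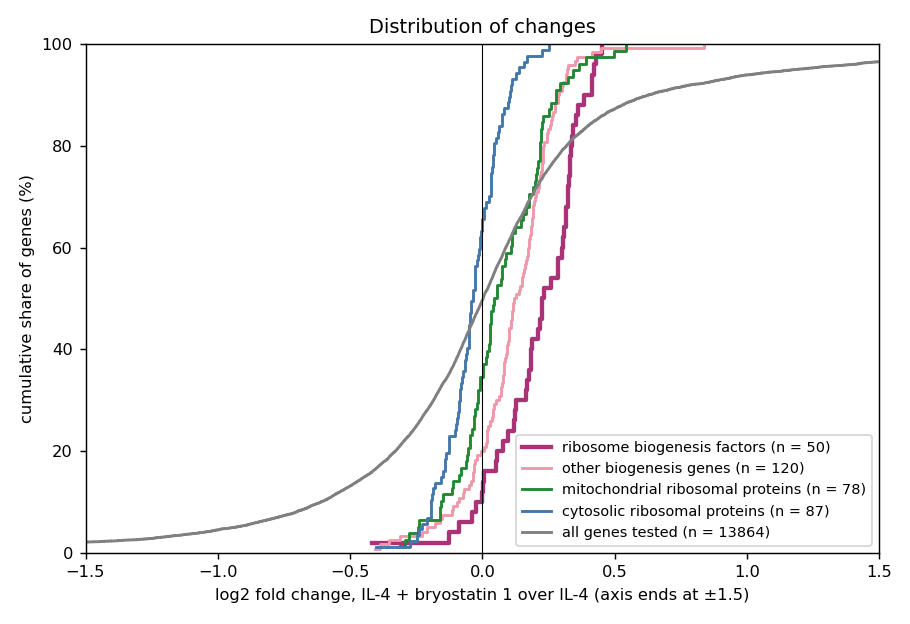
Cumulative share of genes (y axis, %) against the log2 fold change of IL-4+Bryostatin1 over IL-4 (x axis) for the 50 factors, 120 further biogenesis genes, 78 mitochondrial and 87 cytosolic ribosomal protein genes and all 13864 genes tested. Medians were 0.23, 0.12, 0.05, -0.04 and 0.00.

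Myc, known as an activator of ribosome biogenesis genes, had 231, 223 and 211 CPM in IL-4+Bryostatin1 samples, against 190, 167 and 161 CPM in IL-4 samples, a log2 fold change of 0.36 (SE 0.05, edgeR adjusted p = 1.1e-05). Its partner Max had 106, 113 and 111 CPM in IL-4+Bryostatin1 samples, against 125, 127 and 133 CPM in IL-4 samples, at -0.23 (edgeR adjusted p = 8.0e-05). Mycn had at most 3 counts in a library and was not tested. Of 13 proliferation genes, 7 were higher (53.8%, against 30.1% of all genes tested) and 4 lower (30.8%, against 28.0%), with a median of 0.09. Ccne1, cyclin E1, was at 0.45, and Top2a, the topoisomerase of dividing cells, at -0.26. The part of these genes in the changes of the biogenesis factors was not tested.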

How the data were processed

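RNA of 6 B cell samples was sequenced from a directional library. The authors trimmed reads and, per the submitters' processing notes, used featureCounts, HISAT2, SAMtools and cutadapt (versions not given). No source used here gives the genome build, the annotation or the strand setting. The authors' deposited table holds counts, unscaled whole numbers, for 139023 RefSeq transcript rows. Its columns of the authors' own comparison (mean level, log2 ratio, p-value, q-value, rank and call) were not used. The row with the highest mean count stood for each gene, since rows of a gene can hold the same reads. Of the 50 members, 36 have several rows, and in 26 of these the lowest reached 95% of the highest. In the other 10 it was lower, down to 22.4% for Ubtf.

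Genes were kept by filterByExpr of edgeR (minimum count 10, minimum total 15). Libraries were scaled by DEGES, written anew after the study's method as 3 rounds of TMM factors and an exact test, where genes under a false discovery rate of 0.1, and at least 5% of genes, were set aside. Groups were compared by edgeR 4.0.16 (R 4.3.3) with glmQLFit and glmQLFTest, without covariates and with 4 residual degrees of freedom, and p-values were adjusted by Benjamini-Hochberg over all genes tested. The SE was the log2 fold change over the square root of F. Intervals cover 95%. The scripts were tested on simulated data. DESeq2 1.42.0 was an alternative, beside other scalings, filters, rows, a replicate block and each sample left out. Figures were drawn with matplotlib 3.10.9 in Python 3.11.15, and tables used numpy 2.4.6 and pandas 2.3.3. A chi-square per gene between libraries of 1 group lay between 2.31 and 4.85, so none was counted as a copy.

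The members and lists were chosen with earlier results of these data known. Values per sample are given, within each role, for up to 3 called members with the largest change in each direction, the member with the highest mean CPM and up to 3 uncalled members. Of the other pathway genes, up to 4 called in each direction with at least 5 CPM are named. Ccne1 and Top2a were named after their values were seen. Promoter windows, overlaps and snoRNA positions are from RefSeq on GRCm38.p6. Of the B cell markers listed, 1 is not reported here.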

Additional observations from a re-analysis of the deposited data

How the results depend on the processing

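Of the 41 called biogenesis factors, 38 kept their call in all 15 alternatives, and 7 of the 9 uncalled ones stayed uncalled. No called gene changed sign. The factors called higher numbered 36 to 38 when 1 sample was left out, and the lower ones 2 to 3, with a median log2 fold change of 0.22 to 0.26. The call of Nip7 was lost with DESeq2 (0.11, adjusted p = 0.057), that of Pes1 with counts summed over rows (0.10, adjusted p = 0.055), and further calls of Nip7, Pes1 and Nat10 when 1 sample was left out. Bysl was called with total count scaling (0.11, adjusted p = 0.034), and Ppan was called lower without IL-4 replicate 3 (-0.13, adjusted p = 0.030). Cytosolic ribosomal protein genes called higher numbered 16 with total count scaling and 5 to 10 when 1 sample was left out. Those called lower numbered 29 with DESeq2 and 18 to 30 when 1 sample was left out. The cause was not tested. The median of all genes moved by under 0.1 on the log2 scale with every scaling.

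Whether the replicate numbers pair the samples is not stated. The correlations of same-numbered deviations were 0.13, 0.04 and 0.05, and those of differently numbered ones ran from -0.09 to 0.04. Values this small do not decide whether the samples were paired. With the replicate block, 39 factors were higher and 2 lower, as without it, and over all genes 4273 were higher and 4020 lower, against 4174 and 3881 without the block. The lowest count of any of these factors in a library was 1017, and for the uncalled ones the 95% intervals reach under 0.2 in size.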
